A study of Mus musculus with 12 samples.

Results

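The E proteins Tcf3, Tcf4 and Tcf12, the inhibitors Id1, Id2 and Id3, and the partner factor Lyl1 were followed in bulk RNA-seq of mouse bone marrow (BM) progenitors. These 7 genes were taken by symbol from the 32285 genes of the deposited table. The libraries came from WT mice of the C57BL6/J strain, aged 1 month (1MO) or 3 months (3MO). At each age the cells were Ly6d- CLPs, common lymphoid progenitors that lack the surface protein Ly6d, or Flk2+ MPPs, multipotent progenitors that carry the cytokine receptor Flk2. The 4 groups, 1MO CLP, 3MO CLP, 1MO MPP and 3MO MPP, held 3 libraries each, 12 in all, and shared strain, genotype and tissue with no altered allele labelled for any group. The study asked how progenitors that seed the thymus change over the first months of life. For the E protein genes this gives a comparison of ages within each cell type and of cell types at each age.

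E proteins are basic helix-loop-helix (bHLH) transcription factors that bind the E-box, the DNA sequence CANNTG, as pairs. In lymphoid progenitors they are known to activate genes for the IL-7 receptor, antigen receptor rearrangement and the B and T lineage programs. Id proteins have the helix-loop-helix but lack the basic DNA-binding part, so an E protein paired with an Id protein cannot bind. Lyl1 and its relative Tal1 are tissue-restricted bHLH factors of blood progenitors that bind DNA together with an E protein, in complexes with Lmo2, Ldb1 and Gata factors.

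The libraries held 8889083 to 20677785 counts each (median 13208993), so that a floor of 3 counts stood at 0.148 to 0.329 CPM (counts scaled to a common library total). Levels below are CPM after TMM scaling, which sets libraries on a common scale and does not adjust for gene length. The sorted populations carried their markers, since Il7r ranged from 299 to 402 CPM in CLPs and from 5.24 to 18.5 CPM in MPPs, and Kit was called lower in CLPs at both ages (log2 fold change -1.32 at 1MO and -1.65 at 3MO). Ly6d itself was at 1.03 to 7.26 CPM in the CLP libraries. The summed level of 7 erythroid markers was 82.4 to 132 CPM in the library numbered 3 of every group and 9.77 to 27.5 CPM in the other 8 libraries. The summed level of 7 stromal markers was 213 to 602 CPM in 1MO CLP and 4.74 to 10.2 CPM in 3MO CLP, with 13.0 to 81.1 CPM in 1MO MPP and 5.88 to 14.7 CPM in 3MO MPP. Of the 7 genes, 5 passed the filter on low counts and were tested with edgeR among 13367 genes. Id1 and Id3 did not pass.

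Tcf4 was higher in CLPs than in MPPs at 1MO, and it was the only member that edgeR called in any of the 5 comparisons. It encodes an E protein that is required for plasmacytoid dendritic cells and lies at chromosome 18, 69343356 to 69689079 on the plus strand of GRCm38. The 1MO CLP libraries had 842, 665 and 742 CPM of Tcf4. The 3MO CLP libraries had 735, 583 and 712 CPM. In MPPs the values were 481, 421 and 407 CPM at 1MO and 596, 470 and 341 CPM at 3MO. At 1MO the lowest CLP library stood above the highest MPP library, whereas at 3MO the MPP library at 596 CPM lay above the CLP library at 583 CPM. The labels give these libraries different numbers. Between libraries of equal number the CLP library had more Tcf4 at both ages, though no source says that equal numbers share a mouse. Tcf4 was 1.72-fold higher in CLPs than in MPPs at 1MO (log2 fold change 0.78, SE 0.19, 95% interval of the fold 1.30 to 2.27, edgeR adjusted p = 0.0213). It was thereby 1 of 5 tested members called higher, where 2.57% of all tested genes were. At 3MO the fold was 1.44 (1.10 to 1.90, adjusted p = 0.118), and the difference between the ages was itself within error (log2 -0.25, 95% interval -0.81 to 0.31, adjusted p = 0.9999).

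The call of Tcf4 at 1MO held in 8 of 12 fits with 1 library left out and was lost without 1MO CLP 1, 1MO CLP 3, 1MO MPP 2 or 1MO MPP 3, with log2 fold changes of 0.69 to 0.86 and adjusted p of 0.00653 to 0.0890. Without the 4 libraries of highest erythroid marker level it was 0.75 with adjusted p = 0.115, and at 3MO 0.31 with adjusted p = 0.537. With 1 library left out, the call at 3MO appeared without 3MO MPP 1, where the log2 fold change was 0.74 with adjusted p = 0.0266. Of all 21 alternatives, 16 called Tcf4 at 1MO and 2 at 3MO. At 3MO 1 of the 2 was the fit with the library number as a block (edgeR adjusted p = 0.0354). A block of age and number did not call Tcf4 at 3MO. Stromal markers also stood higher in 1MO CLP than in 1MO MPP, with summed levels of 213 to 602 CPM and 13.0 to 81.1 CPM, and Col1a2 was the 1 called of 5 tested (log2 fold change 2.699, adjusted p = 0.0353). The sum was highest in 1MO CLP 1, the library with most Tcf4. In 3MO CLP the library with most Tcf4 had the lowest sum (4.74 CPM). In 1MO MPP and 3MO MPP the library with most Tcf4 did not have the highest sum. The part of stromal RNA in the Tcf4 difference was not tested. Over the alternatives the smallest and largest adjusted p of Tcf4 were 0.00197 and 0.115 at 1MO, and 0.0266 and 0.537 at 3MO.

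Most markers of plasmacytoid dendritic cells were also called higher in CLPs at 1MO. The summed level of the 6 listed markers was 925 to 1048 CPM in 1MO CLP, 791 to 928 CPM in 3MO CLP, 86.6 to 132 CPM in 1MO MPP and 112 to 144 CPM in 3MO MPP. Irf8, a transcription factor shared by dendritic, myeloid and lymphoid progenitors, made up most of it, with 848 ± 46.3 CPM (SD, n = 3) in 1MO CLP. Of the 6 markers, 4 were called higher in CLPs at 1MO and 3 at 3MO, beside 2.57% and 2.73% of all tested genes, with Siglech 4.48 and 4.08 higher and Spib 4.85 and 3.15 higher on the log2 scale. Klk1 was at 0 in all CLP libraries. At 1MO the CLP library with most Tcf4 (842 CPM) had the lowest sum, 925 CPM, and that with least Tcf4 (665 CPM) had the highest, 1048 CPM, while the MPP library with least Tcf4 (407 CPM) had the lowest sum, 86.6 CPM. At 3MO the CLP library with least Tcf4 (583 CPM) had the highest sum, 928 CPM, and the MPP library with most Tcf4 (596 CPM) had the lowest, 112 CPM, with Siglech at 0. The part of these cells in the Tcf4 difference was not tested. In bulk RNA fewer cells of a type and less RNA per cell cannot be told apart.

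**Figure D1:**
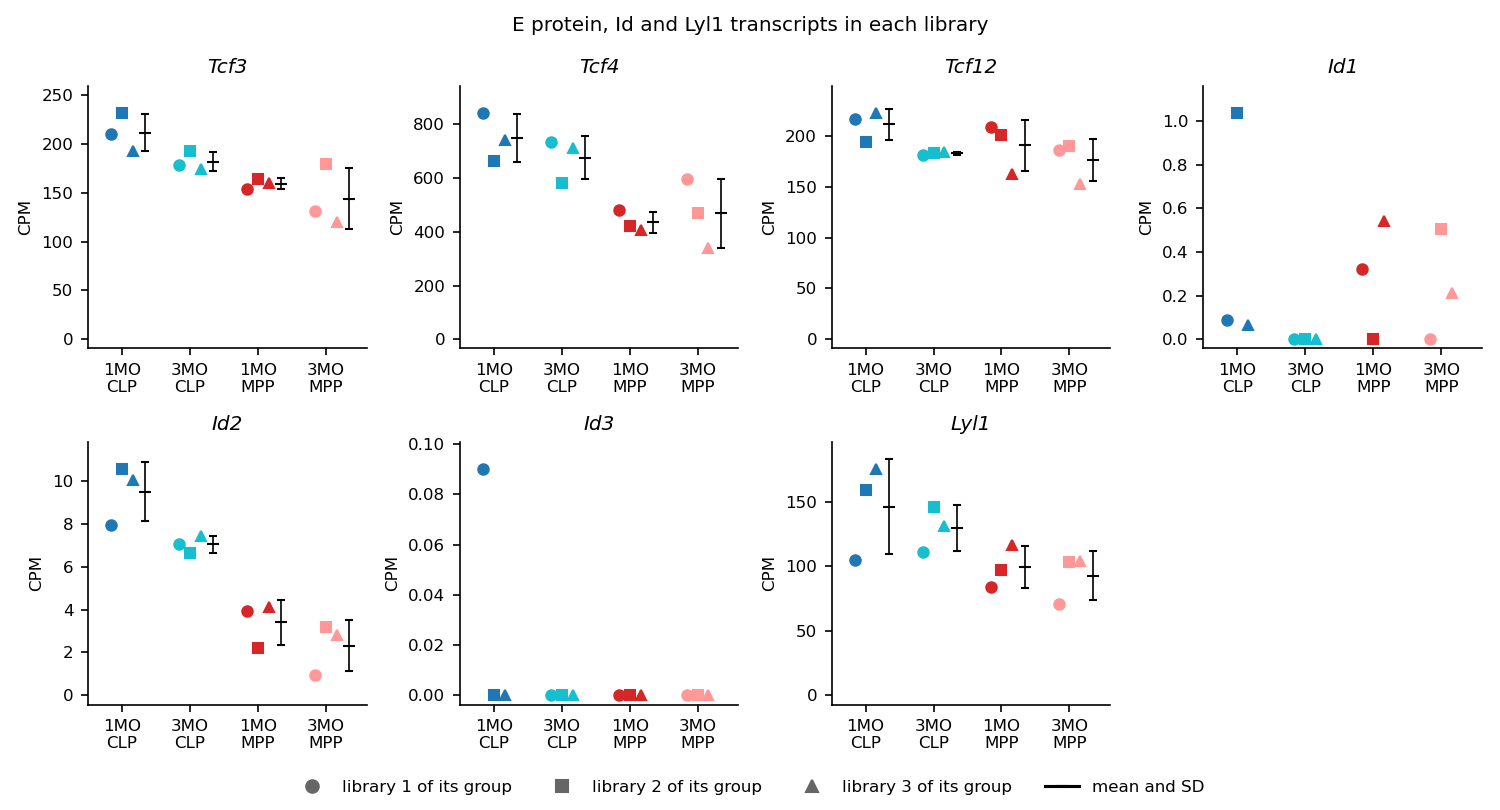
Level of each gene in CPM (vertical axes, each on its own scale) in the 12 libraries, by group; the symbol gives the library number and the bar the mean and SD, which are left out for Id1 and Id3. Tcf4 at 1MO and Id2 at both ages show CLP libraries that all lie above the MPP libraries, while the Id3 panel holds a value above 0 in 1 library.

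Tcf3, whose E protein products are needed for the first steps of B cell development, lies at chromosome 10, 80409514 to 80433647 on the minus strand. Its level was 210, 232 and 193 CPM in the 1MO CLP libraries. It was 178, 193 and 175 CPM in the 3MO CLP libraries. The 1MO MPP libraries had 154, 164 and 160 CPM, and the 3MO MPP libraries had 132, 180 and 121 CPM. All CLP libraries of 1MO stood above those of MPPs, and at 3MO the groups overlapped through the MPP library at 180 CPM. Between libraries of equal number the CLP library had more Tcf3 at both ages. The fold of CLPs over MPPs was 1.33 at 1MO (1.04 to 1.69, adjusted p = 0.207) and 1.26 at 3MO (0.993 to 1.61, adjusted p = 0.281), neither of them past the threshold.

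Tcf12, the third E protein gene and one known for its role in T cell development, lies at chromosome 9, 71842688 to 72111871 on the minus strand. Its group means were 212 ± 15.0, 183 ± 1.61, 191 ± 24.9 and 177 ± 20.5 CPM (SD, n = 3) in 1MO CLP, 3MO CLP, 1MO MPP and 3MO MPP. The groups of CLPs and MPPs overlapped at both ages. The log2 fold change of CLPs over MPPs was 0.15 at 1MO (95% interval -0.17 to 0.47, adjusted p = 0.782) and 0.05 at 3MO (-0.27 to 0.38, adjusted p = 0.906). These intervals leave room for a difference of up to 1.39-fold at 1MO, and at 3MO the sign turned without 3MO MPP 3 (-0.04) and without the 4 libraries of highest erythroid marker level (-0.04).

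Levels of different genes can be compared only per length. Per kb of the longest annotated transcript, the 3 E protein genes summed to 193 ± 9.68 CPM per kb in 1MO CLP, 170 ± 6.36 in 3MO CLP, 135 ± 7.08 in 1MO MPP and 132 ± 23.0 in 3MO MPP. Tcf4 made up 45.2% ± 3.42, 46.4% ± 3.96, 37.6% ± 1.87 and 41.3% ± 6.14 of that sum in the same order. The share of Tcf12 was 16.5% to 18.9% in the 6 CLP libraries and 20.2% to 23.5% in the 6 MPP libraries, which did not overlap. A share depends on every gene in the sum. The level of Tcf12 itself was not lower in CLPs (log2 fold change 0.15 at 1MO and 0.05 at 3MO, neither called). With the median length of the coding transcripts the Tcf12 shares were 14.8% to 17.4% and 18.2% to 23.7%, again without overlap. The order of the genes depends on the length used. In 1MO CLP the longest transcripts put Tcf3 (37.3%) above Tcf12 (17.4%), and the median length put Tcf3 (13.1%) below Tcf12 (16.3%). In 1MO MPP the longest transcripts put the mean of Tcf3 (40.1%) above that of Tcf4 (37.6%). The library 1MO MPP 1 had the other order, with Tcf3 at 36.9% and Tcf4 at 39.6%. The median length put the mean of Tcf4 at 62.7%, above Tcf3 at 15.0%.

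Id2 was the Id gene with a measurable level. It is known to hold back E proteins in natural killer and other innate lymphoid cells, and lies at chromosome 12, 25093799 to 25097140 on the minus strand. The 1MO CLP libraries had 7.92, 10.5 and 10.03 CPM of Id2. The 3MO CLP libraries had 7.06, 6.64 and 7.43 CPM. The MPP libraries had 3.94, 2.19 and 4.10 CPM at 1MO and 0.952, 3.17 and 2.83 CPM at 3MO. At both ages every CLP library stood above every MPP library. The estimated counts behind these values ran from 8.87 in 3MO MPP 1 to 213 in 1MO CLP 2.

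The fold of Id2 in CLPs over MPPs was 2.77 at 1MO (95% interval 1.27 to 6.04) and 3.01 at 3MO (1.37 to 6.62), but with edgeR neither passed adjustment (adjusted p = 0.148 and 0.102). With DESeq2 both did, at log2 fold changes of 1.48 (SE 0.47, adjusted p = 0.0227) and 1.59 (SE 0.48, adjusted p = 0.0137). Among 20 alternatives the smallest and largest adjusted p were 0.0227 and 0.586 at 1MO, and 0.0137 and 0.376 at 3MO, and the direction was the same in all 20 at both ages. Of the 7 markers of natural killer and innate lymphoid cells, 6 were tested. Nfil3, a factor needed for those lineages, was called higher in CLPs at both ages, at log2 fold changes of 2.28 and 2.02, and Il2rb at 1MO, beside 2.57% and 2.73% of all tested genes called higher at 1MO and 3MO. The other 4 were not called at either age, and at 1MO Klrb1c was at -0.02, Nkg7 at 0.12, Zbtb16 at 0.71 and Gata3 at -0.50 on the log2 scale. Gata3 ranged from 3.15 to 10.01 CPM in CLPs and from 2.01 to 11.4 CPM in MPPs, and Ncr1 was at 0 in 10 of 12 libraries and at most 0.283 CPM in the others. The summed level of the 7 was 83.2 to 89.5 CPM in 1MO CLP, 51.8 to 85.6 in 3MO CLP, 39.7 to 47.4 in 1MO MPP and 29.5 to 57.3 in 3MO MPP, and its part in the Id2 difference was not tested.

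Id1 and Id3, which many cells switch on in response to BMP and antigen receptor signals, were at or near 0. Id1 (chromosome 2, 152736251 to 152737410, plus strand) had an estimated count in 7 of 12 libraries. The highest was 21.2 counts, or 1.04 CPM, in 1MO CLP 2. The others with a count held 0.996 and 1.02 in CLPs and 3.00 to 8.62 in MPPs, and all 3MO CLP libraries had 0. The stromal sum also stood apart between these CLP groups (213 to 602 CPM at 1MO and 4.74 to 10.2 CPM at 3MO), and its part in the Id1 counts was not tested. Id3 (chromosome 4, 136143497 to 136145755, plus strand) had 0.963 of a count in 1MO CLP 1 and 0 in the other 11 libraries. At this depth a level of Id3 up to 0.148 to 0.329 CPM, the floor of 3 counts, could not be told from 0. These floors cover counting error only. No fold is given for either gene.

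The promoters of Id2 and Id3 are shown because the genes differed most in detection within the family, and that of Lyl1 because the gene lies within another on the opposite strand. The sequences are from RefSeq (GRCm38.p6), each from 250 bases before to 50 bases after the RefSeq start of transcription, 5′ to 3′ on the strand of the gene, with E-boxes (CANNTG, the same on both strands) in capitals. For Id2 and Id3 the RefSeq start lies downstream of the outermost start in GENCODE, so these windows lie within the spans given for the genes.
Id2, chr12:25096043-25096342, minus strand: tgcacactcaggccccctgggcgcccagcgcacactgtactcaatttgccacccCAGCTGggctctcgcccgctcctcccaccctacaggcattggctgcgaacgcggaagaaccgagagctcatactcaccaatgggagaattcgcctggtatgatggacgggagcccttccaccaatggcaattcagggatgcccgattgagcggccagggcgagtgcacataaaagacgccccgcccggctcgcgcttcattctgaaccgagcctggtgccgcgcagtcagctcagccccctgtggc
Id3, chr4:136143572-136143871, plus strand: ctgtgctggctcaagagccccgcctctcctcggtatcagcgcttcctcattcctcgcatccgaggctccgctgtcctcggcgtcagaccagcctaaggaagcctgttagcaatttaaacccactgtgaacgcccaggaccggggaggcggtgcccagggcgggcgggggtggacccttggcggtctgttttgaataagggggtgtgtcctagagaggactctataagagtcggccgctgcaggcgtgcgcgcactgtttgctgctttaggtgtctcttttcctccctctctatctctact
Lyl1, chr8:84701207-84701506, plus strand: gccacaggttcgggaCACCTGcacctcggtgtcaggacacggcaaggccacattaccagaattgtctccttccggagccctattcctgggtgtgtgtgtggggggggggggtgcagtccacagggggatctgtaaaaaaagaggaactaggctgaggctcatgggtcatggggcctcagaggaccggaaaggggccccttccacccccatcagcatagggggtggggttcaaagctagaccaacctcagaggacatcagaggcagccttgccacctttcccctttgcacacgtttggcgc

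The Id2 window holds 1 E-box, CAGCTG, that begins 196 bases before the start, the Lyl1 window holds 1, CACCTG, at 235 bases before it, and the Id3 window holds 0. The table of promoters had windows for 5 of the 7 genes. Of all 32851 windows of 300 bases, 72.3% hold CANNTG, 16.3% hold CAGCTG and 20.2% hold CAGGTG or its reverse complement CACCTG, so a match in such a window is common. Of the windows of 15 lymphoid genes known to be activated by E proteins, 15 of 17 held CANNTG. A match describes the letters and is no evidence of binding.

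Set against the E proteins per kb, Id transcripts were few. There were 2.71 ± 0.65 transcripts of Id1, Id2 and Id3 per 100 of Tcf3, Tcf4 and Tcf12 in 1MO CLP (SD, n = 3) and 2.11 ± 0.0804 in 3MO CLP. The ratio was 1.47 ± 0.603 in 1MO MPP and 1.09 ± 0.660 in 3MO MPP. The CLP libraries ranged from 2.04 to 3.34 and the MPP libraries from 0.336 to 2.00, so that the cell types did not overlap at either age, while the ages overlapped within each. With the median coding length the means were 1.39, 1.08, 0.789 and 0.576, and at 1MO the ranges of CLPs (1.02 to 1.75) and MPPs (0.460 to 1.07) overlapped. These ratios describe RNA and were not tested.

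**Figure D2:**
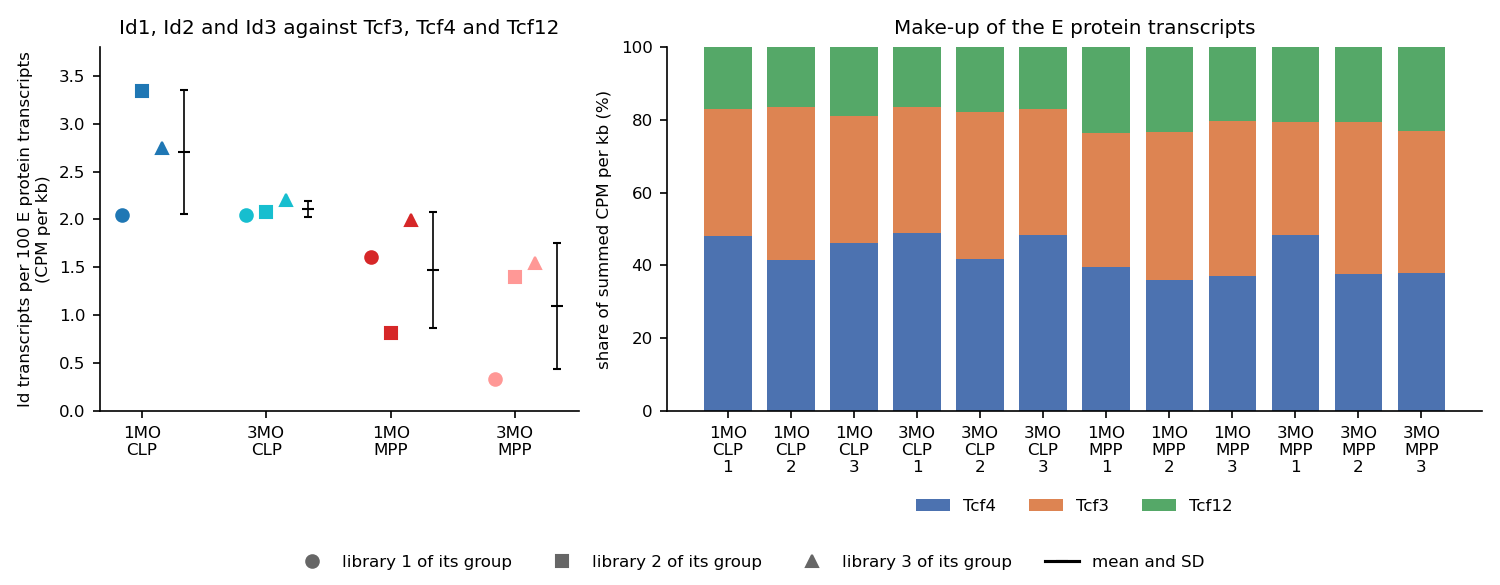
Left, Id1, Id2 and Id3 per 100 transcripts of Tcf3, Tcf4 and Tcf12 (CPM per kb of the longest transcript) in each library, with mean and SD per group. Right, share of Tcf4, Tcf3 and Tcf12 in the summed CPM per kb of each library (%), where the Tcf12 share is 16.5% to 18.9% in CLPs and 20.2% to 23.5% in MPPs. The share depends on every gene in the sum and is not the level of Tcf12.

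Lyl1, the bHLH partner of E proteins in early lymphoid and stem cell populations, lies at chromosome 8, 84701457 to 84704715 on the plus strand. It had 105, 159 and 175 CPM in the 1MO CLP libraries. The 3MO CLP libraries had 111, 146 and 132 CPM. In MPPs the values were 84.1, 97.1 and 116 CPM at 1MO and 70.9, 104 and 104 CPM at 3MO. The groups overlapped at 1MO, through the CLP library at 105 CPM, and did not overlap at 3MO. Between libraries of equal number the CLP library had more Lyl1 at both ages. The fold of CLPs over MPPs was 1.47 at 1MO (1.07 to 2.04, adjusted p = 0.192) and 1.39 at 3MO (1.01 to 1.93, adjusted p = 0.245). Of 21 alternatives, 1 called Lyl1 at 1MO and 0 at 3MO, with adjusted p of 0.0431 to 0.588 and 0.0605 to 0.501. The call at 1MO came from the fit with the library number as a block, and a block of age and number did not give it. Lyl1 lies within Nfix, a gene on the minus strand at 84699876 to 84800344, and the strand setting of the counting is not given in the sources used here. Nfix had log2 fold changes of CLPs over MPPs of -0.53 (adjusted p = 0.134) and -0.58 (adjusted p = 0.0857), with group means of 107 to 162 CPM.

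Tal1, which can take the place of Lyl1 in the same complexes, was called lower in CLPs at both ages (log2 fold change -1.43, adjusted p = 7.92e-05 at 1MO and -1.42, adjusted p = 1.06e-04 at 3MO). The 6 CLP libraries had 34.0 to 41.6 CPM of Tal1 and the 6 MPP libraries 93.6 to 110 CPM. Counts of Lyl1 per count of Tal1 were 3.95 ± 1.06 in 1MO CLP, 3.40 ± 0.529 in 3MO CLP, 1.00 ± 0.220 in 1MO MPP and 0.917 ± 0.231 in 3MO MPP (SD, n = 3), with no overlap between the cell types at either age. Without adjustment for length the ratio compares groups and not the levels of these genes. It was chosen after its values were seen and was not tested. Of the 10 listed tissue-restricted partners, Lyl1 included, 4 were tested, and Tal1 was the 1 called at either age, beside 2.81% and 3.34% of all tested genes called lower.

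Among the partners that tie these factors together, Lmo2 and Gata2 were called lower in CLPs. Lmo2, a bridging protein of the complex, was 1.65 lower in CLPs on the log2 scale at 1MO and 1.89 lower at 3MO (adjusted p = 1.35e-05 and 6.16e-06), from 436 ± 84.8 CPM in 1MO MPP to 139 ± 10.4 CPM in 1MO CLP (SD, n = 3). Gata2, a zinc finger factor of stem and progenitor cells, was lower at both ages, with log2 fold changes of -2.74 and -1.99 (adjusted p = 1.56e-04 and 0.00196). These were the 2 of 8 tested LMO-LDB1 genes that were called, beside 2.81% of all tested genes called lower at 1MO and 3.34% at 3MO. Ldb1, the shared scaffold, was at log2 fold changes of -0.06 and 0.08. The median of the 8 was -0.63 at 1MO and -0.27 at 3MO, beside -0.02 and -0.03 over all tested genes.

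Among lymphoid genes that E proteins are known to activate, those called were mostly higher in CLPs. Of 15 listed, 13 were tested, and 7 were called higher and 1 lower at 1MO and 7 higher and 0 lower at 3MO, beside 2.57% and 2.73% of all tested genes called higher. Their median log2 fold change was 3.05 at 1MO and 2.13 at 3MO, the latter also with Pax5, which was at 0 in all 3MO MPP libraries, put at its bound. Il7r, the IL-7 receptor alpha chain, was 5.19 and 5.02 higher on the log2 scale at 1MO and 3MO (adjusted p = 1.26e-06 and 2.17e-06). Rag1, which cuts antigen receptor genes, was 4.42 and 3.65 higher (adjusted p = 2.89e-07 and 2.69e-06). Ebf1, the B lineage factor, was 7.14 higher at 1MO, from 0.487 ± 0.356 CPM in MPPs to 63.7 ± 11.8 CPM in CLPs (SD, n = 3), and Dntt, which adds bases at rearranged joints, was 2.13 higher at 3MO (adjusted p = 1.73e-06 and 2.00e-05). The gene called lower at 1MO was Gfi1, a repressor also used by myeloid cells, at -1.09 (adjusted p = 0.0271). Il7r, Rag1 and Dntt are also among the markers of CLPs, and IL-7 receptor protein is commonly used to define these cells, so their difference is not independent of the cell type.

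Genes that regulate Id transcription or E protein activity gave 1 call at each age, among 11 inducers and 7 coregulators tested. This is close to the background, since 5.38% of all tested genes were called in either direction at 1MO and 6.07% at 3MO. Of 13 listed BMP, SMAD and EGR inducers of Id genes, 11 were tested. Smad7, a feedback inhibitor of the pathway, was called higher in CLPs at 1MO (log2 fold change 0.97, adjusted p = 0.0117), and 0 were called at 3MO, where Smad7 was at 0.72 with adjusted p = 0.0560. The median of the 11 was -0.25 at 1MO and -0.32 at 3MO. Of the 8 coregulators, 7 were tested, and Cbfa2t3, a corepressor that binds E proteins, was called higher in CLPs at 3MO (0.61, adjusted p = 0.0326) and was at -0.07 at 1MO. The histone acetyltransferases Ep300 and Crebbp were between -0.06 and 0.08 at both ages. The median of the 7 was 0.00 at 1MO and 0.03 at 3MO.

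**Figure D3:**
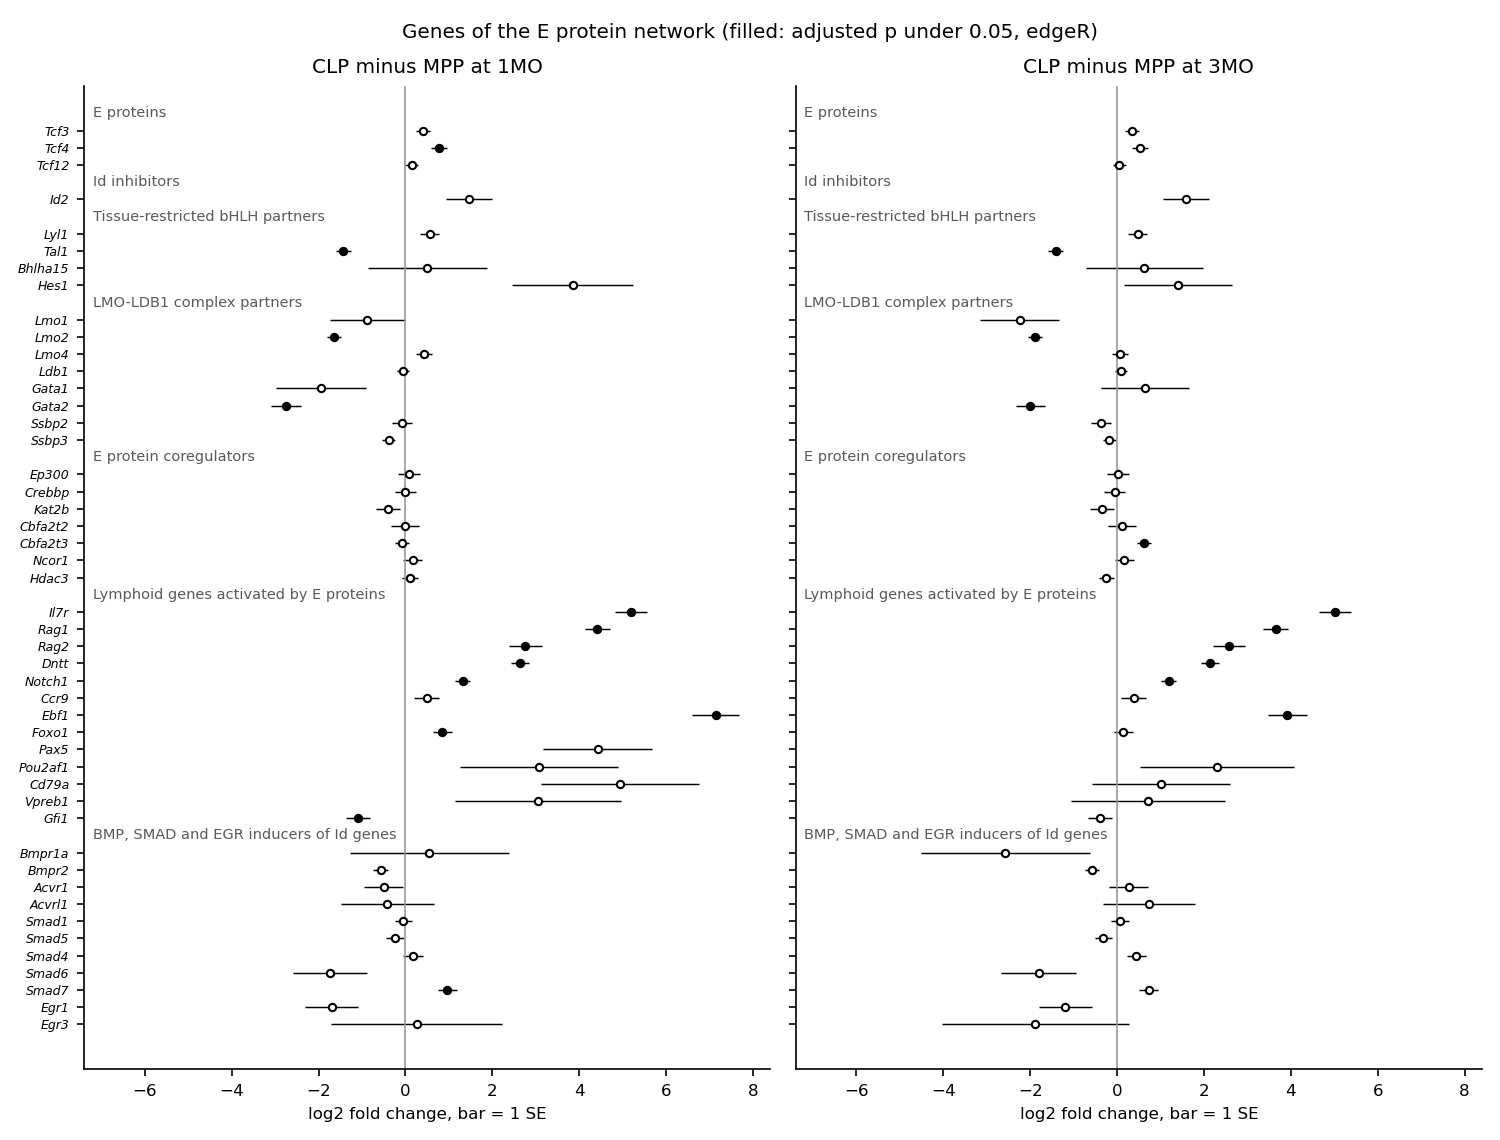
Log2 fold change of CLPs over MPPs with 1 SE at 1MO (left) and 3MO (right) for the tested genes of each list; filled points passed adjusted p under 0.05 with edgeR, and Pax5 at 3MO is not drawn because all 3MO MPP libraries were at 0. Among partners of E proteins, Tal1, Lmo2 and Gata2 lie to the left at both ages, while Lyl1 lies at 0.56 and 0.48.

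Across the comparison of cell types, 3 of the 5 tested members, Tcf3, Tcf4 and Id2, had all CLP libraries above all MPP libraries at 1MO, where 11.1% of tested genes did. At 3MO this held for 2, Id2 and Lyl1, beside 10.1% of tested genes. At 3MO edgeR called 0 of 5, beside 6.07% of tested genes in either direction. At an unadjusted p under 0.05, 4 of 5 passed at 1MO and 3 of 5 at 3MO, beside 15.8% and 19.0% of tested genes. DESeq2 called 2 higher at 1MO, Tcf4 and Id2, and 1 at 3MO, Id2, beside 3.99% and 4.36% of the genes it tested.

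No member passed the threshold for age within CLPs. From 1MO to 3MO the log2 fold change was -0.22 for Tcf3 (95% interval -0.57 to 0.13), -0.15 for Tcf4 (-0.54 to 0.25) and -0.21 for Tcf12 (-0.53 to 0.11). It was -0.43 for Id2 (-1.53 to 0.67) and -0.18 for Lyl1 (-0.64 to 0.29). The adjusted p was 0.910 or higher for all 5. EdgeR thus called 0 of 5, beside 0.0748% of tested genes. At an unadjusted p under 0.05 it was also 0 of 5, beside 5.90%, and DESeq2 called 0, beside 0.446%. For Tcf3, Tcf12 and Id2 every 3MO CLP library stood below every 1MO CLP library, which 6.13% of tested genes did. For Tcf3 this rests on 193.1 CPM in 3MO CLP 2 against 193.4 CPM in 1MO CLP 3. Over the alternatives the sign of all 5 stayed negative.

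Of the lymphoid targets, 11 of 13 had a log2 fold change below 0 in 3MO CLP against 1MO CLP, with a median log2 fold change of -0.72 beside -0.01 over all 13367 tested genes, of which 6844 were below 0. Rag1 was the 1 called. Rag1 was at 263 ± 64.8 CPM in 1MO CLP and 96.5 ± 25.4 CPM in 3MO CLP (SD, n = 3), a log2 fold change of -1.44 (SE 0.25, adjusted p = 0.0428). The 5 tested B lineage markers, of which Pax5, Cd79a and Vpreb1 are also among the targets, were all below 0 with a median of -1.93 and 0 called. The summed level of the 7 listed B lineage markers was 30.1 to 56.0 CPM in 1MO CLP and 16.4 to 23.5 CPM in 3MO CLP, and its part in the lower values was not tested. The stromal markers Col1a1 and Col1a2 were called lower in the same comparison, and their part in it was not tested.

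Age within MPPs moved no member past the threshold. The log2 fold changes were -0.15 for Tcf3 (95% interval -0.50 to 0.20), 0.10 for Tcf4 (-0.29 to 0.50) and -0.11 for Tcf12 (-0.43 to 0.21). Id2 was at -0.55 (-1.68 to 0.58) and Lyl1 at -0.09 (-0.56 to 0.37). Without 3MO MPP 1 the signs of Tcf4 (-0.11) and Lyl1 (0.06) turned, and Lyl1 was also at 0.04 without 1MO MPP 3. The groups overlapped for all 5, where 8.57% of tested genes did not overlap. EdgeR called 0 of 5, beside 0.0224% of tested genes, with 0 of 5 at an unadjusted p under 0.05, beside 3.48%, and DESeq2 called 0, beside 0.258%. The interaction of age and cell type, the test of whether age acted differently in CLPs and MPPs, called 0 of 5 members and 0% of tested genes. It had 0 of 5 at an unadjusted p under 0.05, beside 3.21%, and DESeq2 called 0, beside 0.0396%. The intervals of the interaction were widest for Id2 (log2 0.12, 95% interval -1.44 to 1.68).

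**Figure D4:**
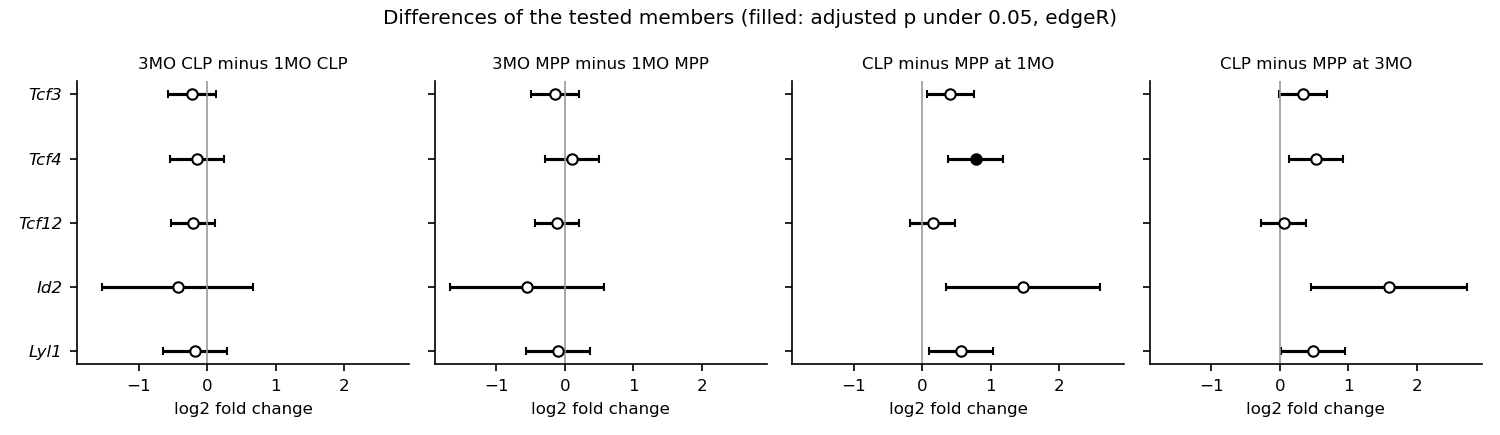
Log2 fold change (horizontal axes) with 95% interval of the 5 tested members for age in CLPs, age in MPPs, and CLPs over MPPs at 1MO and 3MO; a filled point passed adjusted p under 0.05 with edgeR. Tcf4 at 1MO is the filled point, and the intervals of Id2 reach from 0.34 to 2.59 at 1MO and from 0.45 to 2.73 at 3MO.

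Within groups, the levels also varied with the number that the labels give a library. Tcf4 was highest in the library numbered 1 in 4 of 4 groups, Tcf3 in that numbered 2 in 4 of 4, and Lyl1 was lowest in that numbered 1 in 4 of 4. Tcf12 and Id2 had no such number. The share of all tested genes with such a number was not computed, so these counts describe the members only. Per the methods both cell types were sorted from each mouse, but neither the methods nor the labels say that equal numbers mark the same mouse or day. Among the 5 tested members, the spread between libraries of a group was widest for Id2 in 3MO MPP (coefficient of variation 51.5%) and narrowest for Tcf12 in 3MO CLP (0.876%).

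The genes whose pattern over the 12 libraries was most like that of each member were ranked by Pearson's r of log2 CPM among 9311 genes with a mean of at least 10 CPM. For Tcf3 these included Rcc2 (r = 0.95) and Nfam1 (0.93). For Tcf4 they were Csnk1a1 (0.96), Gria3 (0.95) and Rpgrip1 (0.95), and for Tcf12 Cdc27 (0.89), Zc3hav1 (0.86) and Nat8l (0.85). For Lyl1 they were Dap (0.95), Plac8 (0.95) and Lcp1 (0.95). The libraries share cell type, age and number, so these values describe likeness only. With Spearman's rho 0 of the 3 genes remained for Tcf4, 1 for Tcf12 and 1 for Lyl1. After subtraction of group means 0, 1 and 0 remained. Id2, Id1 and Id3 lay under the level needed.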

How the data were processed

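Bulk RNA-seq covered 4 groups of 3 libraries (1MO and 3MO Ly6d- CLPs and Flk2+ MPPs of mouse BM). Per the labels and the methods, the authors made directional libraries from polyadenylated RNA and processed reads with FastQC, UMI-tools, Trim Galore, STAR and Salmon on mm10, and deposited 1 table of estimated counts (length-scaled, not adjusted for depth). Whether reads were counted by strand is not given in the sources used here.

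The estimated counts were rounded and tested in 1 edgeR 4.0.16 quasi-likelihood fit (R 4.3.3) of 4 groups after filterByExpr and TMM, with Benjamini-Hochberg adjustment over 13367 genes and calls at adjusted p under 0.05. Intervals of 95% come from the same fit. Likeness used log2 CPM with a prior count of 2. The text names each member, the 3 genes of smallest adjusted p among those called in each list per comparison of CLPs with MPPs, each list gene called for age, the 3 genes most like each member (1 of them is not reported here), and the markers a statement rests on. Gfi1, Pax5, Ldb1, Ep300, Crebbp, Nfix and the Lyl1 to Tal1 ratio were chosen after their values were seen. Alternatives were DESeq2 1.42.0, its size factors, other filters, a replicate block, equal depth, each library left out, other transcript lengths and, added after the data were seen, leaving out the 4 libraries of highest erythroid marker level. Scripts were tested on simulated data. The members and lists were chosen with earlier results of these data known. Gene positions are GENCODE M21 (GRCm38), which matched 32235 of 32285 identifiers. P-values measure the spread between these libraries, whose independence rests on the submitters' description as experimental repeats.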

Additional observations from a re-analysis of the deposited data

How the results depend on the processing

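Of 500 log2 fold changes of members under the alternatives, 5 lost a call and 5 gained one. The sign differed from the reported one in 15, all of them in comparisons where the member was not called, and 1 of these moved by more than its SE (Tcf4 for age in MPPs, -0.11 without 3MO MPP 1). As reported, edgeR called 10 genes for age in CLPs, 3 for age in MPPs, 719 and 812 for CLPs over MPPs at 1MO and 3MO, and 0 for the interaction. DESeq2 called 65, 35, 1230, 1427 and 7 genes, and 2 members at 1MO and 1 at 3MO. Without the filter on low counts the calls were 46 for age in CLPs, 26 for age in MPPs and 6 for the interaction. With at least 10 counts in every library they were 4 for age in CLPs and 1 for age in MPPs. With only the 6 libraries compared they were 4 for age in CLPs and 435 at 3MO. Without the 4 libraries of highest erythroid marker level, which leaves 2 per group, the calls were 2, 1, 258, 290 and 1, and 0 members were called at 1MO. The cause of the other differences was not tested.

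Same-numbered libraries deviated together with correlations of -0.03 to 0.21, over 0.1 in 3 of 12 pairs, against -0.24 to 0.14 and 1 of 24 for libraries of other numbers. The numbers were not taken as pairs, since no source ties them to mice. The cut of 0.1 cannot decide pairing, since a shared source need not raise every correlation above it. The sample order in the labels runs through all groups at each library number before the next. The library numbered 3 had the highest erythroid marker sum in every group. The study's legend for the CLP profiles speaks of independent experiments, without tying them to the numbers. A shared source of equal numbers is not excluded. With the replicate block, 2 members were called at 1MO, Tcf4 and Lyl1 (0.54, adjusted p = 0.0431), and 1 at 3MO, Tcf4 (0.55, adjusted p = 0.0354). The block with age and number, which would pair CLPs and MPPs of 1 mouse if the numbers marked mice, called 1 member at 1MO, Tcf4, and 0 at 3MO. It left Lyl1 at 1MO at 0.54 (adjusted p = 0.0650) and Tcf4 at 3MO at 0.56 (adjusted p = 0.0560).

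With 1 library left out, genes called ranged from 6 to 10 for age in CLPs, 3 to 5 for age in MPPs, 460 to 887 at 1MO, 553 to 881 at 3MO and 0 to 1 for the interaction. Members called ranged from 0 to 1 at both 1MO and 3MO and were 0 otherwise. The fewest calls at 1MO, 460, came without 1MO MPP 1. The Id to E protein ratio with the median coding length was 1.39 in 1MO CLP, 1.08 in 3MO CLP and 0.789 in 1MO MPP. Depth limits Id1 and Id3, with 45.9 and 0.963 estimated counts over all libraries.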
